A study of Homo sapiens with 4 samples.

Results

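The regions described here are BrdU peaks that lay outside genes, in gaps between 2 genes read in the same direction. A peak was a member when it lay on chromosomes 1 to 22, overlapped no protein-coding or lncRNA gene of the GENCODE annotation (version 44), had its nearest protein-coding genes to the left and to the right on the same strand, and lay within 100 kb of at least one of them. This was true of 4264 of the 33295 peaks in the list, or 12.8%. Merging of overlapping members left 3280 sites, which fell into 1161 of the 8095 same-strand gaps. The last members inside the limit lay 99.9 kb from a gene, and the first peaks outside it 100.02 kb.

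The peaks were called by the study, against Input DNA, in published BrdU-Seq libraries of synchronized BJ-hTERT cells, which had been pulsed with the thymidine analogue BrdU and whose labelled DNA had been immunoprecipitated and sequenced at 16, 19, 22, 24 and 28 h after release into serum in 2 repeats. BJ-hTERT cells are human foreskin fibroblasts immortalized with telomerase, and all libraries came from this line without a further treatment beyond serum starvation and release. The peaks of all timepoints were collected in one list of positions with no score, timepoint or repeat. Depth is therefore unknown, and no value below has a replicate error. The study found the highest number of its peaks at the first of these timepoints, which therefore weighs most in the list. The 4 ChIP-Seq samples of the series, RNAPII and PCNA at 14 and 16 h with 1 library each, were not analysed here.

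In S phase, replication forks move away from origins in both directions and copy genes while these can still be transcribed. RNA polymerase II enters a gene at the transcription start site (TSS) and moves past the cleavage and polyadenylation site before it leaves the DNA. A gap between 2 same-strand genes is therefore bounded by the end of the upstream gene on one side and by the TSS of the downstream gene on the other, and the comparison made here was whether BrdU peaks lay closer to the one or to the other. The study took local excess of BrdU as a mark of places where forks stalled or paused. Below, the gene end and the TSS are the outermost annotated bases of the gene, and a distance runs from the gene edge to the nearest base of the peak.

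Sequences of members nearest to each kind of edge are shown first, from hg38 and on the strand of the flanking genes, so that the upstream gene lies to the left. Capitals mark AATAAA, the commonest polyadenylation signal, which was searched on this strand. The first lay 60 bp past the end of LRRC37A3, the shortest such distance of all members.

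LRRC37A3 to SMURF2, chr17:64853844-64854069: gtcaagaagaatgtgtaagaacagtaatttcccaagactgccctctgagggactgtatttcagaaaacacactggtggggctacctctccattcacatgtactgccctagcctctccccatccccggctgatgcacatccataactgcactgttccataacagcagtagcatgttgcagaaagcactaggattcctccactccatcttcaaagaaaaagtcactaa

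The next 2 lay 85 bp upstream of the TSS of CCDC80, which encodes an extracellular matrix protein, and 208 bp upstream of the TSS of ATAD3C.

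CD200R1L to CCDC80, chr3:112649616-112649864: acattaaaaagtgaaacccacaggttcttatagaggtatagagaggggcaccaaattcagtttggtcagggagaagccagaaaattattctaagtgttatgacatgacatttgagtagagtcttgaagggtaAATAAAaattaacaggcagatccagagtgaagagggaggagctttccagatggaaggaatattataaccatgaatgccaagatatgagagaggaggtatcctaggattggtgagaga

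VWA1 to ATAD3C, chr1:1449222-1449480: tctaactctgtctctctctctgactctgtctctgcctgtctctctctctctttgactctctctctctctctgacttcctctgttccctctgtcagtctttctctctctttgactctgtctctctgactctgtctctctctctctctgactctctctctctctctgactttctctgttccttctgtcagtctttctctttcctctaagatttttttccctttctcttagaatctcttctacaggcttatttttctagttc

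The last lay in the gap between AMACR, a racemase of branched-chain fatty acid oxidation, and SLC45A2, a transporter of the melanosome. The gap is 1.47 kb long, and 2 members that overlapped each other, of 1218 and 1121 bp, filled most of it. They started 91 and 96 bp from the end of AMACR and stopped 162 and 254 bp short of the TSS of SLC45A2. The central 300 bases of the wider one are given.

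AMACR to SLC45A2, chr5:33985315-33985614: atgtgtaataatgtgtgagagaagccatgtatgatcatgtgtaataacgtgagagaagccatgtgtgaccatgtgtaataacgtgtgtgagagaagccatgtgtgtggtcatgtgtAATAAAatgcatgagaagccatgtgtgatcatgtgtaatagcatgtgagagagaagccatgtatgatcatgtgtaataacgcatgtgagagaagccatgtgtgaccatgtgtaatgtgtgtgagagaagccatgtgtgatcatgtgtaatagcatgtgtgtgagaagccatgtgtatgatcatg

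None of these 4 stretches met the definition of a tandem array used below, and 1 AATAAA was found in each of the stretches next to CCDC80 and SLC45A2. The stretch upstream of ATAD3C was rich in T on the gene strand, with a T minus A difference of 40.2% of its bases. The other members of this kind were one 189 bp past the end of TIMM17A, a subunit of the mitochondrial import channel, and one 226 bp before the TSS of PRLH, the gene of prolactin releasing hormone. Together with the pair between AMACR and SLC45A2, which belongs to both sets, these were 4 of the 5 members nearest to a gene end and the 5 nearest to a TSS.

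No lean of the members towards the end of the upstream gene or the TSS of the downstream gene was detected. Of the 4264 members, 2118 were closer to the gene end and 2146 to the TSS, a share of 49.7% for the gene end (95% exact Clopper-Pearson interval, 48.2 to 51.2%). The comparison is with the eligible bases, that is the 285 Mb of known sequence that the same rule leaves between same-strand genes, of which 50.9% were closer to the gene end. The difference, members minus bases, was -1.25 percentage points, and the interval of the members held the share of the bases. Such intervals cover counting error only and treat peaks as independent, although 38.8% of the members overlapped another peak. With gaps as units, the standard error of the share was 1.43 percentage points (n = 1161 gaps), which is larger than the difference.

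In either orientation the interval held the share of the bases. In gaps between genes on the plus strand, 1088 of 2186 members (49.8%, interval 47.7 to 51.9%) were closer to the gene end, against 50.6% of the bases. On the minus strand the share was 49.6% (interval 47.4 to 51.7%) of 2078 members, against 51.3% of the bases. After overlapping members were merged, 49.9% of the sites were closer to the gene end. The median distance of a member was 42.1 kb to the end of the upstream gene (quartiles 16.0 and 91.8 kb) and 41.6 kb to the downstream TSS (quartiles 15.8 and 88.9 kb).

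Members were sparser in the first kb next to either kind of edge. Within 1 kb past a gene end lay 72 members, or 1.69% of them, where 2.31% of the bases lay. Within 1 kb before a TSS lay 60 members (1.41%), against 2.12% of the bases. As densities these were 10.96 members per Mb at the gene end (95% Poisson interval 8.57 to 13.8) and 9.93 per Mb at the TSS (7.58 to 12.8), below the 15.0 per Mb over all eligible sequence (14.5 to 15.4). The ratio of both densities was 1.10 with an interval of 0.773 to 1.58, so that no difference between the edges was detectable at this number of peaks.

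Beyond the first kb the densities rose on both sides. Past the gene end there were 14.7 members per Mb at 1 to 2 kb, 13.4 at 2 to 5 kb and 15.1 at 5 to 10 kb. Before the TSS the values were 14.0, 14.5 and 16.6 per Mb at the same distances. Over the whole first 10 kb, 738 members (17.3%) lay next to a gene end, which held 18.5% of the bases, and 748 (17.5%) next to a TSS, which held 17.7%. This gave 14.0 (13.0 to 15.0) and 14.8 (13.8 to 15.9) members per Mb, and a ratio of gene end over TSS of 0.943 with an interval of 0.851 to 1.05 that holds equality. Of these members, 219 were within 10 kb of both edges and count on both sides. From 20 to 50 kb the densities were 16.4 and 16.2 per Mb.

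**Figure D1:**
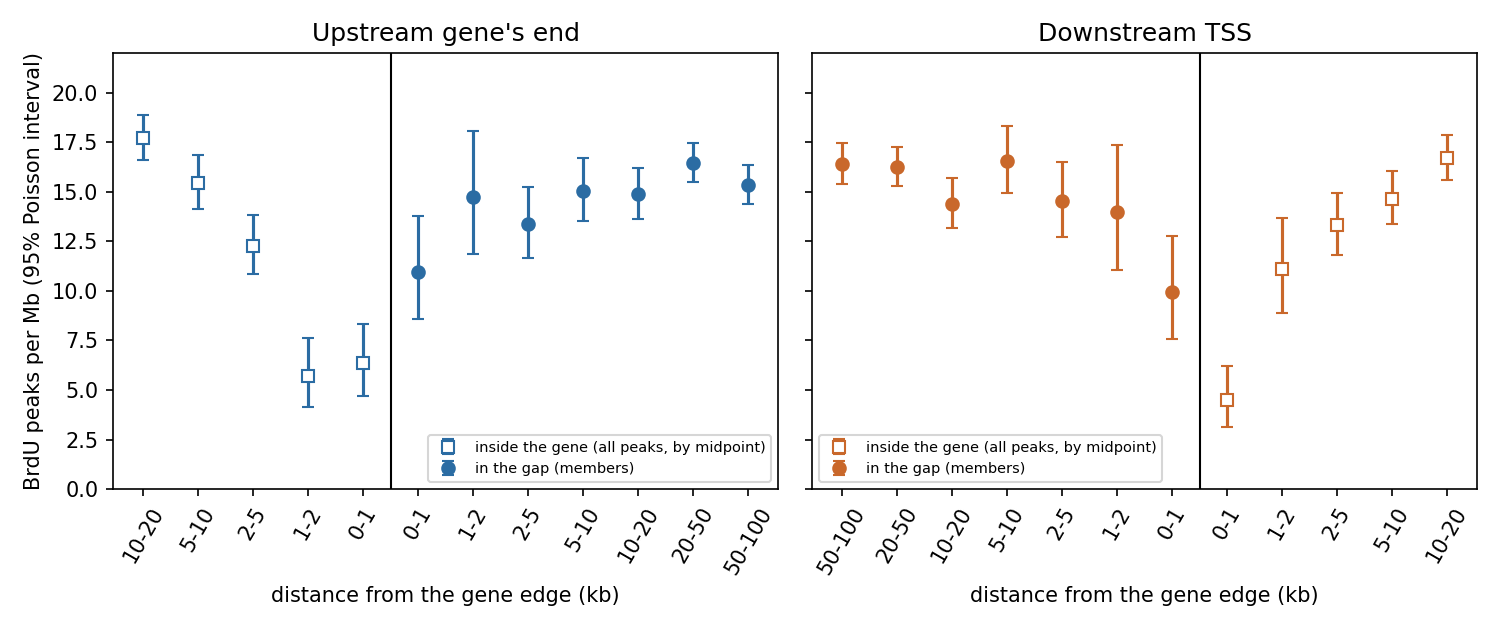
BrdU peaks per Mb (vertical axis, with 95% Poisson intervals) by distance in kb from the end of the upstream gene (left, blue) and from the TSS of the downstream gene (right, orange). Filled circles are members in the gap, open squares are all peaks inside the gene counted by their midpoint, and the black line is the gene edge. The lowest values lie within 2 kb of the line, with 4.47 per Mb in the first kb of the downstream genes.

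The dip went on inside the genes. The last kb of the upstream genes held 51 peaks, or 6.34 per Mb (interval 4.72 to 8.33), and the kb before it 5.69 per Mb. The first kb of the downstream genes held 36 peaks, or 4.47 per Mb (3.13 to 6.19), and the next kb 11.1 per Mb. From 10 to 20 kb inside, the densities were 17.7 and 16.7 per Mb. Peaks inside genes were counted by their midpoints. The members counted in the same way gave 8.98 per Mb in the first kb past a gene end (6.84 to 11.6) and 7.12 per Mb in the last kb before a TSS (5.15 to 9.58). These intervals overlap those inside the genes. A member touches no gene, so its midpoint cannot lie right at the edge. Peaks that crossed the edge itself numbered 8 at the gene ends and 4 at the TSSs of the 8095 gaps, with no expected count set beside them.

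The sequence next to the edges also differed in composition. Eligible sequence within 1 kb of the TSS had an AT content of 48.7%, and that within 1 kb of the gene end 54.6%, compared with 57.5% over all eligible sequence. The members there had a mean AT content of 55.8% ± 5.15 (SD, n = 60 members) at the TSS and 57.8% ± 6.27 (SD, n = 72 members) at the gene end. Members were richer in AT than the sequence around them in every distance class, and their mean over all gaps was 59.3% ± 6.17 (SD, n = 4264 members). The part of base composition, or of how well reads can be placed, in the dip was not tested. Eligible bases were also counted whether or not their stretch was long enough to hold a whole peak. The part of such short stretches in the dip was not tested either.

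In the other kinds of gap, too, the first kb was the sparsest of the distance classes. Between convergent genes, where both edges are gene ends, the first kb held 11.4 peaks per Mb (interval 8.78 to 14.7). Between divergent genes, where both edges are TSSs, it held 9.86 per Mb (7.24 to 13.1). Over all eligible sequence there were 14.9 peaks per Mb in the convergent gaps (1617 peaks, interval 14.2 to 15.7) and 14.9 per Mb in the divergent gaps (2167 peaks, interval 14.3 to 15.6). These values stand beside the 15.0 per Mb of the same-strand gaps.

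Positions along the gap were expressed from 0 at the end of the upstream gene to 1 at the downstream TSS. The median position of the members was 0.504 (95% order-statistic interval, 0.480 to 0.533), and that of the eligible bases 0.4845. In the gaps under 200 kb, in which every base can be eligible, the median was 0.509 (0.488 to 0.533) for 3005 members and 0.4955 for the bases. In these gaps the first 10% of the gap held 14.0 members per Mb (12.3 to 15.8) and the last 10% 14.5 (12.8 to 16.4), while the steps of 10% between them held from 15.8 to 18.7 per Mb. The members were thus fewer per Mb at both ends of the gap, and no tilt from one end to the other was seen.

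**Figure D2:**
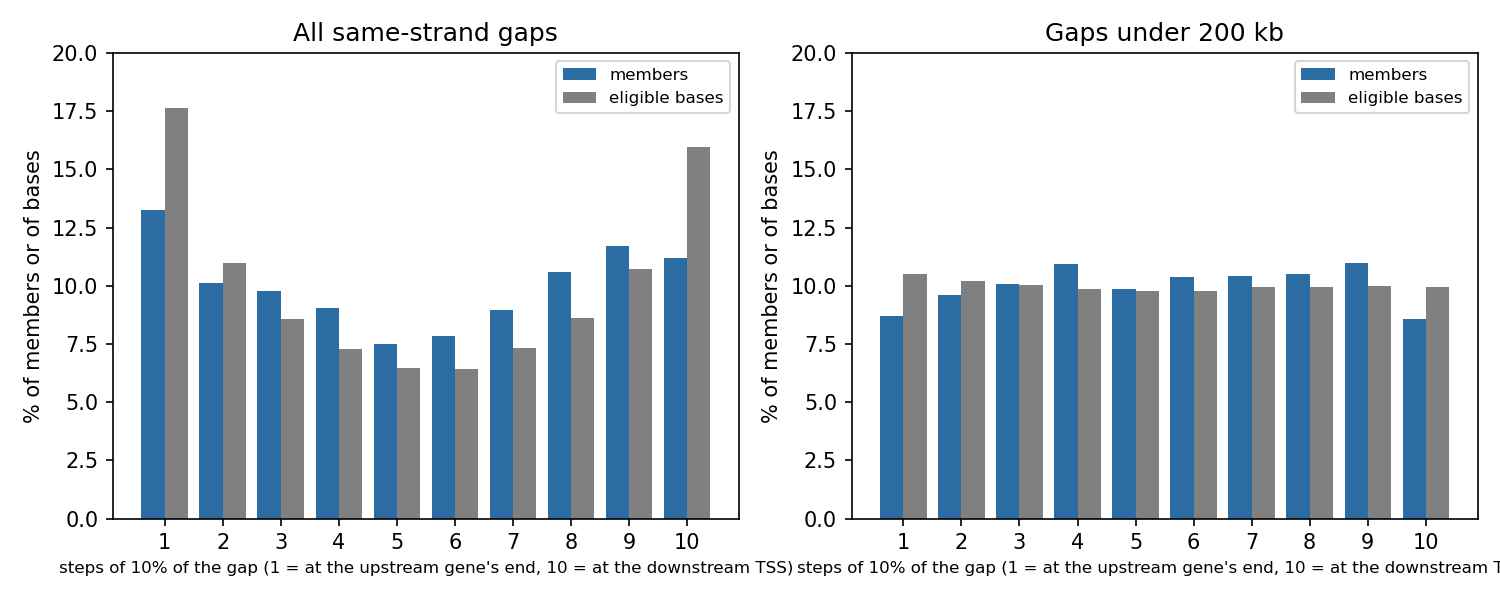
Percent of members (blue bars) and of eligible bases (grey bars) in each step of 10% of the gap, from the end of the upstream gene (1) to the downstream TSS (10), for all same-strand gaps (left) and for gaps under 200 kb (right). In the first and the last step the blue bar is lower than the grey bar in both panels, for example 8.72% of members and 10.5% of bases in the first step of gaps under 200 kb.

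The density of members varied with the length of the gap. Gaps under 10 kb held 11.2 members per Mb, those of 50 to 100 kb 18.8 and those of 100 to 200 kb 18.6, whereas gaps of 500 kb or more held 7.33 per Mb within 100 kb of their genes. A member was found in 2.19% of the 2827 gaps under 10 kb and in 35.7% of the 543 gaps of 100 to 200 kb. The share closer to the gene end was highest in gaps of 500 kb or more, at 58.9% (53.5 to 64.1%) of 343 members, where 54.0% of the bases were closer to the gene end. It was lowest in gaps of 100 to 200 kb, at 47.3% (44.3 to 50.4%) against 50.6% of the bases, and there the interval left the share of the bases just outside. In the other classes of length the interval held it.

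Genes flanking the gaps were also divided by their length. Within 10 kb past the end of an upstream gene there were 13.3 members per Mb for genes under 30 kb (interval 11.96 to 14.8), 14.3 for genes of 30 to 100 kb (12.6 to 16.3) and 15.0 for genes over 100 kb (12.8 to 17.5). Within 10 kb before the TSS the values were 13.6, 16.9 (14.9 to 19.1) and 14.7 per Mb.

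By chromosome, the share closer to the gene end was above that of the bases on 9 chromosomes and below it on 13. The interval held the share of the bases on 18 of the 22. On chromosome 18, 69.9% of 73 members were closer to the gene end (58.0 to 80.1%), against 50.9% of the bases, while the share was 39.0% of 292 members on chromosome 3 (33.4 to 44.9%), 41.7% of 199 on chromosome 4 (34.8 to 48.9%) and 40.2% of 102 on chromosome 17 (30.6 to 50.4%). The members of a chromosome lie in few gaps, 28 on chromosome 18 and 43 on chromosome 4, so these intervals are too narrow. The value of chromosome 4 rested on the gap between FAM53A and NKX1-1, without which it was 50.3% (42.4 to 58.2%) against 51.5% of the bases. Without the gap that holds most members, the shares were 41.6% on chromosome 3, 38.7% on chromosome 17 and 70.9% on chromosome 18. On chromosome 16 the share went from 47.8 to 61.4% without the gap between BANP and ZNF469, and on chromosome 21 from 59.3 to 40% without the gap between TPTE and POTED, where all 19 members were closer to the gene end. The gap between TPTE and POTED is 3004 kb long, and 15 of its 19 members were tandem arrays, as defined below. Leaving out these gaps was chosen after the values had been seen.

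**Figure D3:**
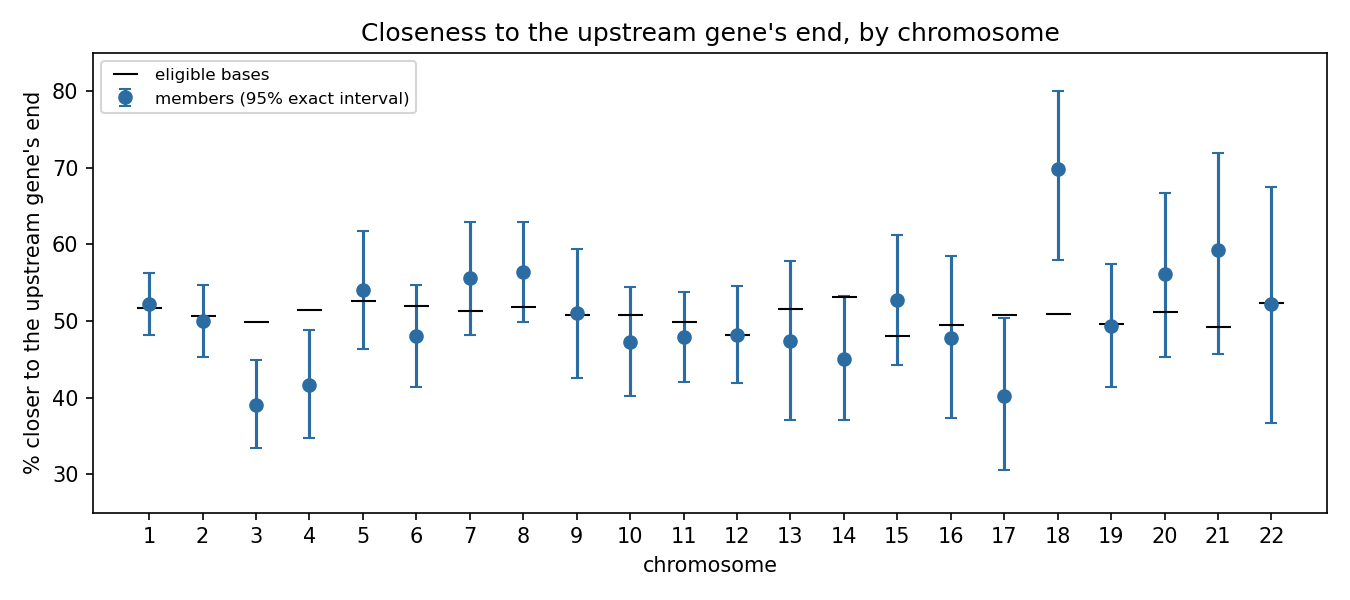
Share of members closer to the end of the upstream gene (blue points, 95% exact intervals for counting error) and share of the eligible bases (black dashes) on each of the 22 chromosomes; the vertical axis starts at 25%. The blue points scatter on both sides of the dashes, and chromosome 18 is the highest at 69.9%.

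Members were gathered in few gaps. A single member was found in 477 gaps and 2 to 4 in 407, whereas 91 gaps held 10 or more and together 1506 members, or 35.3% of all. Of the 277 gaps with 5 members or more, 130 had most of them closer to the gene end, 139 had most closer to the TSS and 8 had as many on each side. All members were on the side of the gene end in 49 of these gaps and on the side of the TSS in 41. Neighbouring sites of one gap lay a median of 4.61 kb apart (quartiles 1.00 and 13.5 kb).

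The gap with most members lies between TNFSF4 and TNFSF18, which encode ligands of the tumour necrosis factor family for receptors on T cells (chr1:173050942-173183730, minus strand). It held 35 members at 27 sites in 119 kb of eligible sequence, which is 295 per Mb. They were spread over the gap from 6.65 to 119 kb past the end of TNFSF4, with 16 closer to that end and 19 closer to the TSS of TNFSF18. None was a tandem array, and each of the flanking genes held 3 peaks of its own. The gap between PARVA, an adaptor of focal adhesions, and TEAD1, a transcription factor of the Hippo pathway, was nearly as dense, with 25 members in 87.0 kb (287 per Mb). Here 16 members were closer to the end of PARVA, the nearest 0.736 kb from it, and 9 closer to the TSS of TEAD1, while 22 and 13 peaks lay inside the genes.

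The gap between UBL3 and SLC7A1, a transporter of cationic amino acids, held 33 members at 28 sites, 17 closer to the end of UBL3 and 16 closer to the TSS of SLC7A1. Between AMIGO2 and SLC38A4, another amino acid transporter, lay 33 members at 25 sites, 16 and 17 on either side. The gap between ADCY8, an adenylyl cyclase, and ASAP1, which acts on Arf GTPases, held 33 as well, 19 closer to the end of ADCY8. In the gap between TLN2 (talin) and TPM1 (tropomyosin), both of the cytoskeleton, 28 members lay at 27 sites, with 14 on either side and none within 10 kb of a gene.

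In single gaps the counts on the sides were uneven to differing degrees, in either direction. Of the 28 members between CENPF, a kinetochore protein, and the potassium channel gene KCNK2, 20 were closer to the end of CENPF and 8 to the TSS of KCNK2. Of the 28 between PDE4B, a cAMP phosphodiesterase, and SGIP1, 10 were closer to the end of PDE4B and 18 to the TSS. Between RIMS1, of the synaptic active zone, and the potassium channel gene KCNQ5 the numbers were 11 and 14. In the gap between CD200R1L and CCDC80, which also held 25 members, 3 were closer to the gene end and 22 to the TSS. In the gap between PLG, the gene of plasminogen, and MAP3K4, with 25 members too, all were closer to the gene end. These lay 87.1 to 99.6 kb from the end of PLG, near the 100 kb limit, and 15 were tandem arrays. Of the 238 kb of that gap, 91.4 kb was eligible. Shares of eligible bases on either side were not set beside the counts of single gaps. With 25 members each, 4 gaps shared the last places among the 10, and PARVA to TEAD1 and RIMS1 to KCNQ5 were taken by their position. The 10 gaps together held 302 members (7.08%), 139 of them closer to the gene end and 163 closer to the TSS. Which side held more depended on the choice among the tied gaps, since other choices gave from 126 against 176 to 153 against 149.

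**Figure D4:**
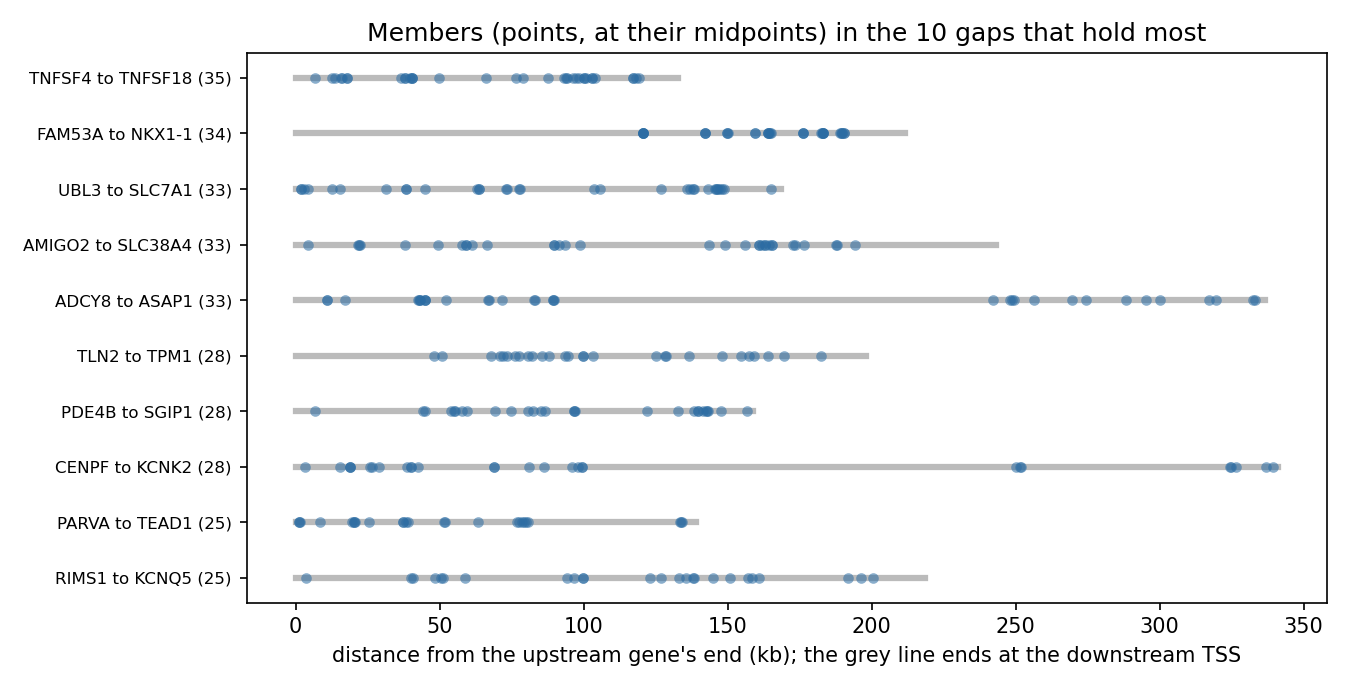
Midpoints of the members (blue points, darker where they overlap) along the 10 gaps that hold most, as distance in kb from the end of the upstream gene; each grey line runs to the downstream TSS, and the number of members stands in parentheses. In most gaps the points are spread along the line, while all 34 between FAM53A and NKX1-1 lie more than 120 kb from the end of FAM53A.

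The gap between FAM53A and NKX1-1, a homeobox gene, differed in that its 34 members were stacked on 10 sites, all closer to the TSS of NKX1-1, and 20 of them were tandem arrays. A tandem array is here a peak whose sequence matches itself at 70% or more of its positions when shifted by up to 120 bp. The site with the deepest stack held 6 peaks, up to 5 over one base, at chr4:1434264-1435719. Its central 300 bases on the gene strand are shown, with the first repeat of 46 bp in capitals.

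FAM53A to NKX1-1, chr4:1434842-1435141: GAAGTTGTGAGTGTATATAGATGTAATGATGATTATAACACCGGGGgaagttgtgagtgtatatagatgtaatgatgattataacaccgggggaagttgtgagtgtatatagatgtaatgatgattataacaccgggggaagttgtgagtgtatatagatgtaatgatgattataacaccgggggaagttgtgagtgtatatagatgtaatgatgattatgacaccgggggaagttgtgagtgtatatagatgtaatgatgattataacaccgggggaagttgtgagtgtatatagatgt

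Stacks of peaks were often tandem arrays elsewhere too. The study called peaks at each timepoint. The list gives no timepoint or repeat, so a stack means only that the same place was called more than once. Of the members, 61.2% overlapped no other peak, and none lay in a stack of more than 5. Tandem arrays were 4.37% (3.61 to 5.22%) of the 2611 sites with 1 peak, 11.2% (8.61 to 14.2%) of the 518 with 2, 21.7% of the 92 with 3, 53.1% (34.7 to 70.9%) of the 32 with 4 and 70.4% (49.8 to 86.2%) of the 27 with 5. The site with most peaks, 8 with 5 over one base, lay between MVK, mevalonate kinase, and FAM222A, 63.1 kb from the end of MVK. The next, with 7 peaks, lay 0.862 kb past the upstream gene of ADI1, an enzyme of methionine salvage, and another with 7 peaks lay between RHOH and CHRNA9, a nicotinic receptor subunit, 39.6 kb from the TSS of CHRNA9. The centres of the first and the last of these are given, with the first 30 and 18 bases in capitals. These are the unit lengths estimated for the centres, and the repeats there are not exact copies. Over its whole width the first matched itself at 65.9% of positions and the site next to ADI1 at 65.4%, both just under the limit for an array. The last matched itself at 81.7% over its whole width, at a shift of 24 bp.

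MVK to FAM222A, chr12:109661877-109662176: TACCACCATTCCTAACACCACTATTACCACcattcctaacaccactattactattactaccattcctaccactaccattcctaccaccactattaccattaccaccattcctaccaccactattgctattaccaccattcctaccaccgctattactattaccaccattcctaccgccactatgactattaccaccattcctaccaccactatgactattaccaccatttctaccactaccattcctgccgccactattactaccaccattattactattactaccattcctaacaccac

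RHOH to CHRNA9, chr4:40294882-40295181: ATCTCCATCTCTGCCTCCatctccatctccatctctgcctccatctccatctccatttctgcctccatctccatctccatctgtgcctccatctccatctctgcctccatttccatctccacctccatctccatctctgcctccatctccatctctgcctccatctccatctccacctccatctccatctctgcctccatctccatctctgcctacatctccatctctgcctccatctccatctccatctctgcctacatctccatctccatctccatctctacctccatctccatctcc

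The widest member, of 2673 bp, was also a tandem array. It lay between IGFN1 and PKP1, the desmosomal protein plakophilin, 26903 bp from the end of IGFN1 and 24923 bp from the TSS of PKP1. Most members were narrow, with a median width of 285.5 bp and quartiles of 224 and 393 bp.

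Sequence features were counted on either side of the gap. Tandem arrays made up 12.5% of the members (535; interval 11.6 to 13.6%), compared with 9.93% of all peaks on chromosomes 1 to 22 (9.61 to 10.3%) and 9.54% of those that were no member (9.20 to 9.89%), whose intervals lie below. The share was 12.5% among members closer to the gene end (11.1 to 14.0%) and 12.6% among those closer to the TSS (11.2 to 14.1%). Within 10 kb of the edges the shares were 9.49% at the gene end (7.47 to 11.8%) and 13.0% at the TSS (10.6 to 15.6%), and these intervals overlap. In convergent gaps 10.5% of the peaks were arrays (9.002 to 12.05%), and in divergent gaps 9.78% (8.56 to 11.1%), an interval below that of the members. After overlapping peaks were merged, the shares were 6.95% of the sites in same-strand gaps (6.10 to 7.88%), 5.59% in convergent gaps (4.30 to 7.12%), 5.49% in divergent gaps (4.45 to 6.69%) and 5.76% of all sites on chromosomes 1 to 22 (5.47 to 6.05%). The interval of the same-strand gaps overlaps those of the other gaps and lies just above that of all sites, which include it. These intervals cover counting error only, and no test of the difference was made.

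Perfect tracts of at least 20 bp of a unit of up to 6 bp were found in 234 members (5.49%, interval 4.82 to 6.21%) and in 5.16% of all peaks on chromosomes 1 to 22 (4.92 to 5.41%). They were found in 5.34% of the members closer to the gene end and in 5.64% of those closer to the TSS. The commonest units on the strand of the genes were ATCC, in 32 members, and ATGG, in 26, followed by GT in 22 and AC in 18. A tract can be read from any base of its unit, so GGAT, the reverse complement of ATCC, is the same unit as ATGG. GT is the reverse complement of AC, so each pair is 1 repeat read on either strand. An AATAAA was found on the gene strand in 16.4% of the members (15.3 to 17.5%) and on the opposite strand in 17.5% (16.3 to 18.6%). On either strand it was found in 30.7% of the members and in 31.9% of all peaks on chromosomes 1 to 22. Among members closer to the gene end the shares were 17.6 and 16.6%, and among those closer to the TSS 15.2% (13.7 to 16.8%) and 18.4% (16.7 to 20.1%). T exceeded A on the gene strand in 51.8% of the members (50.3 to 53.3%), with a mean difference of 0.3996% ± 19.1 of the bases (SD, n = 4264 members). Single members were often skewed, with a median size of the difference of 15.1%, in either direction.

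Overlap of members with other annotation was counted, with no share of the eligible bases to set beside it. Genes of other types were overlapped by 150 members (3.52%), most of them pseudogenes, and 1 overlapped a miRNA gene. Promoter windows of RefSeq, from 250 bases before to 50 after a start, were touched by 17 members, 5 of which touched that of the downstream gene itself. These were at ATAD3C, MEIS3, PRLH and RHOU, with 2 members at MEIS3. At MEIS3 and RHOU the RefSeq start differs from the annotated TSS used for the distances here, and the member at RHOU lay more than 50 kb from that TSS. The members 85 bp before the TSS of CCDC80 and 162 bp before that of SLC45A2 touched no window of these genes. Both distances are under 250 bases, so the starts of the annotations may differ there too.

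Gaps with many members lay between genes with many peaks. Gaps with at least 20 kb of eligible sequence, 3409 in number, were grouped by their members. Where a gap held none, the genes upstream of it carried 6.64 peaks per Mb and those downstream 6.53 per Mb. The values were 15.0 and 16.3 per Mb beside gaps with 1 member, 33.4 and 22.6 beside those with 2 to 4, 49.0 and 37.3 beside those with 5 to 9, and 68.2 and 74.2 beside the 90 gaps with 10 or more. A peak was found in 64.4% of the upstream and 78.9% of the downstream genes of the last group, and in 18.9% of either beside gaps without a member. The gaps also grew in eligible sequence, from a median of 48.0 kb to 120 kb, and the part of length in this order was not tested.

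**Figure D5:**
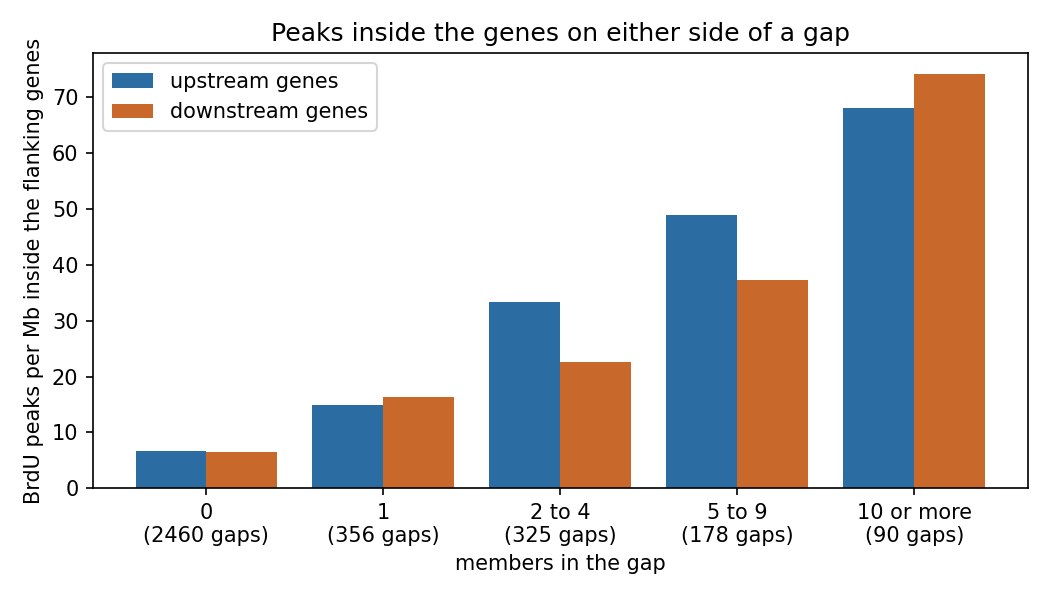
Peaks per Mb inside the genes upstream (blue) and downstream (orange) of same-strand gaps with at least 20 kb of eligible sequence, by the number of members in the gap, with the number of gaps in parentheses. Both bars are higher in each group than in the group before, from 6.64 and 6.53 per Mb to 68.2 and 74.2 per Mb.

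Lists of genes defined by symbol were set beside the 15.0 members per Mb of all same-strand gaps. Gaps next to genes of the fibroblast matrix held 148 members in 4.00 Mb, or 37.0 per Mb, found in 26 of 84 gaps. The fullest of them lay before FBN1 (fibrillin), where 22 members stood between CEP152 and FBN1, 16 closer to the end of CEP152, the nearest 0.238 kb from it. Next came 16 members at 11 sites between RXRA and COL5A1, a chain of type V collagen, 6 of them tandem arrays. A further 15 lay in the 507 kb gap between MREG and FN1, fibronectin. Of these 15, 6 were closer to the end of MREG, and the nearest to the TSS of FN1 lay 51.5 kb from it. Solute carrier genes had 262 members at 23.7 per Mb, of which the gaps before SLC7A1 and SLC38A4 gave 66.

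The CEACAM, PSG, SIGLEC, LILR and KIR genes of the immunoglobulin superfamily had 50 members in 0.706 Mb, or 70.9 per Mb, in 8 of 43 gaps. Of these, 16 lay between PSG1 and PSG8, pregnancy-specific glycoproteins, 10 between PSG11 and PSG7 and 8 between PSG3 and CEACAM8. The PSG genes are near copies of each other, so the placement of reads there is uncertain. Olfactory receptor genes had 111 members at 15.1 per Mb and cytochrome P450 genes 18 at 15.2 per Mb. Zinc finger genes had 109 at 9.81 per Mb, of which 22 lay between BANP and ZNF469, 21 of them closer to the TSS of ZNF469. Keratin genes had 13 at 6.93 per Mb. Histone genes had 5 at 5.18 per Mb, all at 2 sites between EFCAB12 and H1-10, and HOX genes none in 0.359 Mb of eligible sequence. Genes of DNA replication and repair had 22 members at 17.8 per Mb, of which 13 lay between MCM5, a subunit of the replicative helicase, and RASD2, 8 of them closer to the end of MCM5. These densities describe the lists, and gaps with many members weigh heavily in them.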

How the data were processed

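Peaks came from published BrdU-Seq of BJ-hTERT cells. The deposited values are start and end positions in bp on hg38, and the authors aligned reads with Bowtie2 and called peaks at each timepoint with MACS2 v2.1.0 (per the labels, Bowtie2 2.3.3.1 and SAMtools 1.4 for the series). The list holds no count, score or sample, so depth and precision per library are unknown. Starts were taken as 0-based and coordinates are printed 1-based. Genes came from GENCODE version 44 and sequence from hg38. Eligible bases were all known bases that the rule leaves, counted exactly. Shares have 95% exact Clopper-Pearson and densities 95% Poisson intervals, for counting error only. No test was made, because the list has no replicates. Interval arithmetic was tested on simulated data. Named were the pairs of genes of the 10 fullest gaps, the 5 members nearest to each kind of edge, the 3 deepest sites, the widest member and up to 3 gaps a gene list. CD200R1L to CCDC80, PLG to MAP3K4, the sites of FAM53A to NKX1-1, the single chromosomes and their fullest gaps were added after their values were seen. Some items that this rule names are not reported here. The members and lists were chosen with earlier results of these data known. Python with numpy, pandas and scipy was used.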

Additional observations from a re-analysis of the deposited data

How the results depend on the processing

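The share closer to the upstream gene's end, the ratio of densities within 10 kb of both edges and the median position were recomputed with overlapping peaks merged, with distances from midpoints, with other genes excluded, with limits of 50 and 200 kb, with both genes within 100 kb, with canonical transcripts, without arrays and tracts, and without each chromosome in turn. The share ranged from 49.2 to 50.9%, the ratio from 0.910 to 0.9751 and the position from 0.490 to 0.514. Limits of 50 and 200 kb could not change the ratio within 10 kb, which stayed at 0.943. The position is taken at midpoints in any case, so distances from midpoints left it at 0.504. Within 5 and 20 kb of the edges the ratio was 0.980 and 0.979. The share stayed below that of the bases in all of them except when each gap weighed the same, where it was 50.9% for gaps and bases alike, 0.0256 percentage points above. The share of tandem arrays moved by construction, to 20.9% with a self-match of 60%, 6.05% with one of 80% and 6.95% of merged sites. Leaving out the 10 fullest gaps was chosen after the data were seen and gave a share of 49.9%, a ratio of 0.938 and a position of 0.500. A stricter threshold for peaks was not run, since the list holds no score. No paired analysis was possible because neither repeat nor timepoint is named in the list. The number of peaks limits the first kb next to an edge, where 72 and 60 members lie.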
